A study of Homo sapiens with 3 samples.

Results

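Cluster 9 comprised 942 of 20844 cells (4.52%, exact Clopper-Pearson 95% interval 4.24 to 4.81) of a single cell RNA sequencing experiment on human embryonal carcinoma cell lines driven towards the yolk-sac tumor lineage. Its members were all cells that the authors' graph-based clustering had assigned to that cluster, summed over the library codes, and its profile was the deposited average of each of 32727 genes over these cells. The 13 other clusters of the same experiment served for comparison, and all numbers are those of the deposited tables, which need not be the cluster numbers used in the publication. Embryonal carcinoma is the pluripotent, stem cell-like form of germ cell tumor, and yolk-sac tumor is a derivative with extra-embryonic endoderm features. The 3 lines were NCCIT, GCT27 (named GCT26 in a further label of the same sample) and 2102EP, each giving 1 library. Cells of every line carried the MPHv2 activator helper complex from a stable lentiviral insertion and were transduced with a lentiviral lentiSAMv2 vector that activates the endogenous SOX17 gene through dCas9. Within a schedule of 8 days they then received CHIRON at 3 µM, a GSK3 inhibitor that stimulates WNT signalling. It was given together with Activin A at 100 ng/mL, FGF2 at 25 ng/mL and 1 µg/mL of heparin, with fresh factors every 48 h. No untreated library of these lines was analysed here, so all values compare cell populations within treated cultures, and SOX17 activation, Activin A, CHIRON and FGF2 were shared by every group.

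Presomitic mesoderm is the embryonic tissue flanking the posterior neural tube from which somites, and later vertebrae, skeletal muscle and dermis, are formed. It arises from the primitive streak and tail bud under WNT and FGF signalling, is specified by the transcription factors TBXT, MSGN1 and TBX6, and carries the segmentation clock, an oscillator of NOTCH, WNT and FGF pathway genes such as HES7, LFNG, DLL1, DLL3, NKD1 and AXIN2. Retinoic acid from the formed somites opposes the FGF and WNT gradients, and HOX genes are opened in order along each cluster while the tissue elongates. CHIRON with FGF2 is a usual way to obtain presomitic mesoderm from pluripotent cells in culture.

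All levels below are cluster averages of UMIs (unique molecular identifiers, each standing for 1 captured RNA molecule) per 10000 UMIs of a cell, so that each cluster's averages sum to 10000. A log2 difference is log2 of cluster 9 plus 0.1 over the reference plus 0.1, the reference being the unweighted mean of the 13 other clusters unless another is named, and at least 2-fold means 1 or more on that scale. Because of the added 0.1, differences of genes with low averages are understated. The averages pool cells of the libraries and come with no spread, and the clusters were formed from the same values, so no test between clusters was possible and none was made. UMI totals per cell were not given, but the smallest average above 0 in cluster 9 was 0.000115. Ribosomal protein genes took 17.9% of UMIs in cluster 9 and 16.2 to 29.8% in the others, mitochondrial genes 2.87% and 2.47 to 6.10%, so cluster 9 lay inside both ranges. A gene listed at 0 was not read as absent, since clusters 12 and 13 held only 180 and 42 cells.

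The cells of cluster 9 came unevenly from the library codes of the deposited cell counts. The codes match no sample label and were therefore not assigned to cell lines. The largest contributor gave 784 of the 942 cells (83.2%, 80.7 to 85.6), although it held 33.2% of all cells. Cluster 9 made up 11.3% (10.6 to 12.1) of that code's 6910 cells, 2.52% (2.12 to 2.97) of the 5432 cells of the second and 0.247% (0.153 to 0.377) of the 8502 cells of the third. These intervals cover counting error only. The same code held 179 of the 180 cells of cluster 12 (99.4%) and 31 of the 42 of cluster 13 (73.8%), but between 6.67% and 57.6% of the other clusters. The cell population and its main library therefore cannot be told apart in the comparison with the mean of the others, and the values of cluster 12, drawn almost entirely from the same code, are given beside the results.

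The 6 genes given as markers of the cluster were each highest in cluster 9 of all 14 clusters. MSGN1, a basic helix-loop-helix factor at the head of presomitic mesoderm formation (GRCh38 chr2:17816460-17817798, + strand), averaged 4.58 in cluster 9, against a lowest of 0.0156, a median of 0.0830 and a highest of 0.878 in the others, the last in cluster 13. Its log2 difference of 3.71 led all genes with an average of at least 0.5 in any cluster, and UMIs of MSGN1 were found in 91.0% of cluster 9 cells and in 9.7% of all other cells. HES6, a HES family factor of the NOTCH pathway (chr2:238238267-238240662, - strand), averaged 12.6, with 0.838 as the median and 5.31 in cluster 13 as the highest of the others, a log2 difference of 3.27. Both were thus separated from every other cluster, with clusters 12 and 13 next.

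TBX6, the T-box factor required for paraxial instead of neural fate (chr16:30085793-30091924, - strand), averaged 0.393, while the others ran from 0.00600 to 0.0808. It was detected in 36.3% of cluster 9 cells and 4.3% of other cells, and its log2 difference was 1.96. Of the remaining markers, NKD1, a feedback inhibitor of WNT signalling that binds Dishevelled (chr16:50548396-50649249, + strand), reached 22.1 against 1.14 to 6.69 in the others and a log2 difference of 2.60. These values placed a transcription factor of low average and a WNT feedback gene of high average on the same side.

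GPC3, a heparan sulfate proteoglycan used as a yolk-sac tumor marker in pathology (chrX:133535745-133987100, - strand), averaged 9.78 and was next highest in cluster 12 at 5.10. KAZN, which encodes kazrin, a protein linked to cell junctions and the cytoskeleton (chr1:13892792-15118043, + strand), averaged 10.5 against at most 2.85. GPC3 and KAZN are not presomitic mesoderm genes by definition, and their log2 differences were 2.97 and 3.16. Detection in cluster 9 cells was 96.4% for GPC3, 94.3% for KAZN, 94.7% for HES6 and 97.2% for NKD1, against 46.8%, 62.6%, 41.5% and 71.5% of other cells. Depth per cell was not given for either set, so these shares were read only beside the averages, which pointed the same way.

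**Figure D1:**
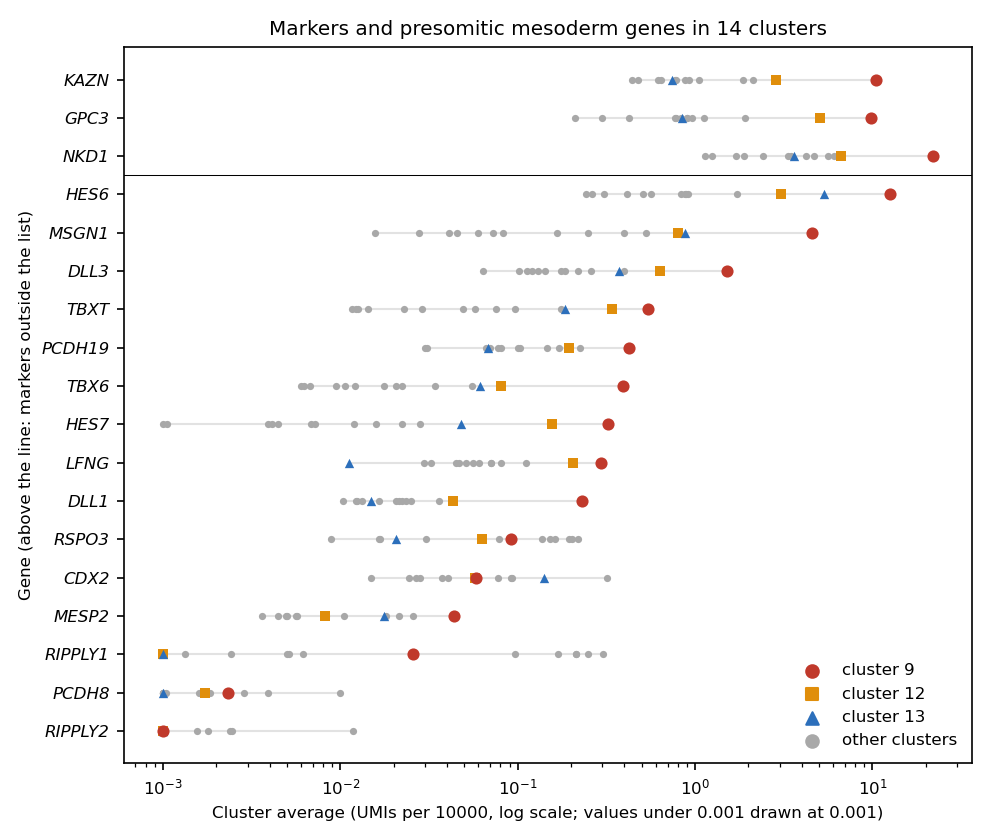
Averages of the 6 markers and of 15 presomitic mesoderm genes in each of the 14 clusters, in UMIs per 10000 on a log axis, 1 point per cluster, with values under 0.001 drawn at 0.001. Cluster 9 lies to the right of all others for MSGN1, HES6, TBX6, DLL3, TBXT and HES7, with clusters 12 or 13 next, whereas CDX2, RSPO3 and RIPPLY1 are within the range of the others.

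Of 15 presomitic mesoderm genes, all measured, 9 were at least 2-fold higher in cluster 9 and none was 2-fold lower, and 10 had their highest average there. MSGN1, HES6 and TBX6, already given as markers of the cluster, are among both the 9 and the 10. Their part in these counts is no separate support. The same holds for NKD1 and GPC3, also given markers, and for genes of this list that are counted again in other lists below. The shares over all 32727 measured genes were 1.28% for 2-fold higher, 1.16% for 2-fold lower and 18.5% for a highest average in cluster 9. They are the background of every list count below that is made against the mean of the others. The median log2 difference over the 15 members was 1.36, against 0.00 over all measured genes. RIPPLY2 was listed at 0 in cluster 9, and 3 members stayed under 0.05 in every cluster.

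Among the specification factors, TBXT (brachyury, chr6:166157656-166168700) averaged 0.541 in cluster 9, with 0.0494 as the median and 0.338 in cluster 12 as the highest of the others. The log2 difference of TBXT was 1.81, and it was detected in 58.3% of cluster 9 cells against 8.5%. Within the clock, HES7, the oscillating repressor, averaged 0.322 against a median of 0.00718, and LFNG, the glycosyltransferase that modifies NOTCH, 0.295 against 0.0561. Both had cluster 12 next, at 0.156 for HES7 and 0.204 for LFNG.

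The NOTCH ligand DLL3 averaged 1.51 against 0.632 in cluster 12, and DLL1, the activating ligand of the tissue, 0.232 against 0.0429. PCDH19, a protocadherin of the early paraxial mesoderm, stood at 0.425 against 0.226 in cluster 7. The 6 members short of a 2-fold difference included genes of both ends of the tissue. Of these, MESP2, RIPPLY2 and PCDH8 stayed under 0.05 in every cluster and could not reach 2-fold once 0.1 was added. MESP2 and RIPPLY1, which mark the anterior end where somite borders are set, averaged 0.0436 and 0.0256, RIPPLY2 was listed at 0, and PCDH8, a protocadherin, was at 0.00233, so that these genes had low averages in cluster 9. MESP2 was still highest there, with at most 0.0257 in the others, whereas RIPPLY1 reached 0.303 in cluster 8. CDX2 and RSPO3, of the caudal end, averaged 0.0581 and 0.0913 and lay inside the range of the other clusters, with log2 differences of -0.17 and -0.07.

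Set against cluster 12 alone, 5 of the 15 members were at least 2-fold higher in cluster 9 and none was lower, where 0.675% of all genes were 2-fold higher and 0.999% 2-fold lower. These were MSGN1 (log2 difference 2.38), HES6 (2.01), TBX6 (1.45), DLL1 (1.21) and DLL3 (1.14). TBXT, HES7 and LFNG differed from cluster 12 by 0.55, 0.72 and 0.38. The T-box gene TBX6 and both Delta ligands were thus past 2-fold against either reference, and TBXT and the clock repressor only against the mean of the others.

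The 250 bases upstream of the start were read for MSGN1 and for 2 WNT target genes that were also higher in cluster 9, SP5 and DKK1, to show whether the letters of the TCF/LEF core (CTTTG) and of the T-box core (AGGTGT) occur there. Capitals mark both motifs, searched on both strands, and they do not overlap each other. The sequences are from RefSeq, build GRCh38.p14, all on the + strand, at chr2:17816210-17816459 for MSGN1, chr2:170715087-170715336 for SP5 and chr10:52314031-52314280 for DKK1.
MSGN1: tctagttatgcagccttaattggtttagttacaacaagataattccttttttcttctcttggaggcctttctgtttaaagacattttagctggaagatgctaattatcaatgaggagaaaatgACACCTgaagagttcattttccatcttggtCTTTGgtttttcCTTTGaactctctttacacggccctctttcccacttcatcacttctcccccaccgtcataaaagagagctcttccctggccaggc
SP5: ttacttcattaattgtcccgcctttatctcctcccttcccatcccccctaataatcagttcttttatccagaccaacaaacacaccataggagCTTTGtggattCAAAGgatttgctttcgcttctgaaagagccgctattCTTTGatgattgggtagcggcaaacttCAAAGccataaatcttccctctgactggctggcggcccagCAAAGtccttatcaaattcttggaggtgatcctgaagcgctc
DKK1: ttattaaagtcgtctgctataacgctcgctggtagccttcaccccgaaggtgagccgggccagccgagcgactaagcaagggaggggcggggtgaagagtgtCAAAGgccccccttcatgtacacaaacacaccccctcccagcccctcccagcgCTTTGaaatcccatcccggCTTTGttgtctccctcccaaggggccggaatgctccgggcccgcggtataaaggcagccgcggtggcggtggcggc

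MSGN1 held 2 CTTTG and 1 AGGTGT, SP5 held 5 CTTTG and DKK1 held 3. Of 35116 promoters of the same length in the table, 42.1% had at least 1 CTTTG, 12.4% at least 2, 2.83% at least 3 and 0.0854% at least 5, and 9.57% had at least 1 AGGTGT. Counted by gene, 8 of the 13 presomitic mesoderm genes found in the table held CTTTG (61.5%), against 47.2% of all genes in it. AGGTGT was held by 2 of the 13 (15.4%), against 11.6% of all genes. Of 12 WNT feedback genes found, 7 held CTTTG (58.3%) and 2 held AGGTGT (16.7%). With so few genes, no difference from all genes was read from these shares. A match is a description of letters and not of binding.

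Across the transcriptome, 12139 genes had a mean over the 14 clusters of at least 0.05. Of these, 373 (3.07%) exceeded the mean of the others by 2-fold or more and 379 (3.12%) were 2-fold lower, and the median log2 difference was 0.09. With the columns rescaled by the median of ratios the median became -0.07 and the split 244 higher to 579 lower, so that 29.6% rather than 49.6% of the differing genes were higher. Of the 373 higher genes, 334 had their highest average in cluster 9, 221 had cluster 12 as the next highest, and 108 were also at least 2-fold above cluster 12. Of the 379 lower genes, 71 were also 2-fold below cluster 12. The minimum was passed through cluster 9 alone by 13 of the 373.

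**Figure D2:**
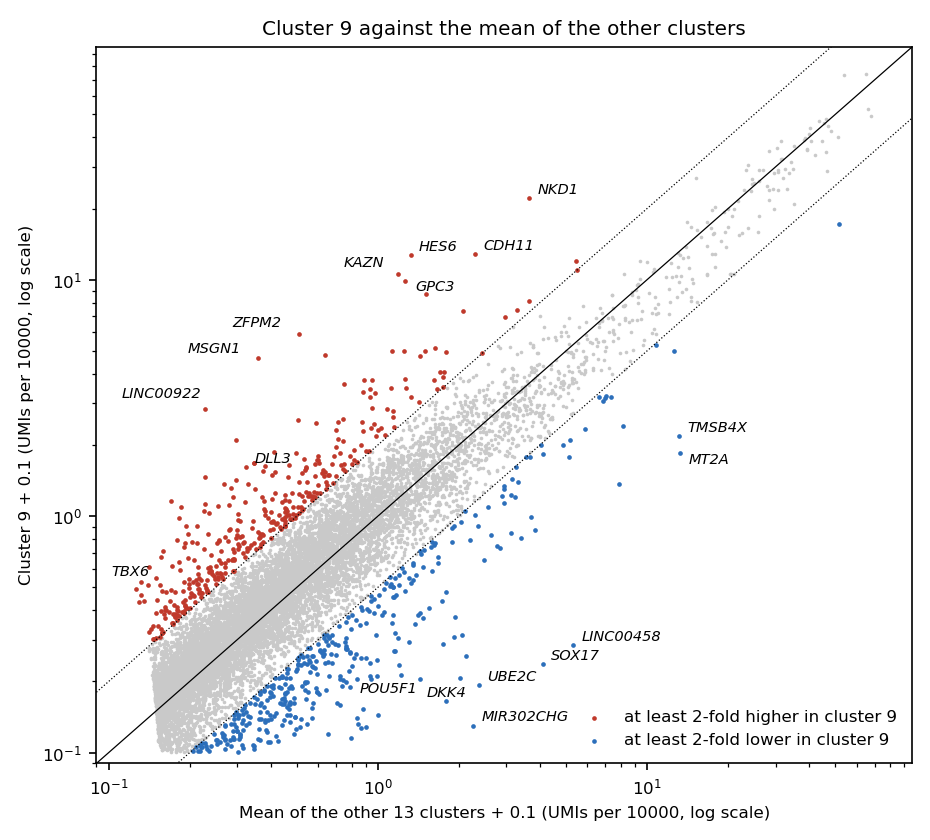
Average in cluster 9 against the mean of the 13 other clusters for 12139 genes, each plus 0.1 UMIs per 10000, on log axes, with dotted lines at 2-fold. The 373 higher genes (red) include MSGN1, HES6, KAZN, GPC3 and NKD1 far above the diagonal, and the 379 lower genes (blue) include SOX17, LINC00458 and MIR302CHG far below it.

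The 20 genes with the largest difference, among those with an average of at least 0.5 in any cluster, were all highest in cluster 9, and 15 of them were also at least 2-fold above cluster 12. They were chosen by that difference, so their values describe them and test nothing. Besides MSGN1, HES6, KAZN, GPC3, NKD1 and DLL3 they included ZFPM2 (FOG2), a cofactor of GATA factors, with 5.82 in cluster 9, 0.400 as the median and 1.09 as the highest of the others. CDH11, a cadherin of mesenchymal and paraxial mesoderm cells, averaged 12.8 against 0.529 to 4.95 and was detected in 99.2% of the cells.

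Signalling genes were among the leading 20 as well. PTCH1, receptor and target of Hedgehog signalling, averaged 2.45 against at most 1.07, WNT5A, a ligand of non-canonical WNT signalling, 1.58 against at most 0.678, and FZD10, a WNT receptor, 1.03 against at most 0.480. BDNF, a neurotrophin, stood at 0.988 against at most 0.307, and TG, the thyroglobulin gene, at 1.06 against at most 0.311. The cytoskeletal formin FHOD3 averaged 4.71, with 2.63 in cluster 12, and the matrix protein gene VWA2 2.01, with 0.592 there. The 4 remaining long non-coding or unnamed transcripts were LINC00922, AC013287.1, LINC02334 and AL136962.1, and OTUD7A, a deubiquitinase gene, completed the set.

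LINC00922 differed from its neighbours in the list. It averaged 2.75 in cluster 9 but 0.0969 in cluster 12, below the 0.489 of cluster 2, and its log2 difference was 3.65 from the mean of the others and 3.85 from cluster 12. AC013287.1 (2.69 and 2.83), CDH11 (2.49 and 2.55) and LINC02334 (2.43 and 2.45) were likewise as far from cluster 12 as from the mean. OTUD7A (2.35 and 0.38), AL136962.1 (2.53 and 0.74), FHOD3 (2.91 and 0.82), GPC3 (2.97 and 0.93) and FZD10 (2.31 and 0.96) were within 2-fold of cluster 12.

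By the ratio of cluster 9 to the next highest cluster, both plus 0.1, 67 genes were at least 2-fold above every other cluster. ZFPM2 (4.96), LINC00922 (4.84), MSGN1 (4.79), AC013287.1 (4.23), LINC02334 (3.95), KAZN (3.60) and NKD1 (3.27) had the highest ratios. Genes of low average followed, among them SEMA4D, a semaphorin (0.668 against at most 0.141), FGF1 (1.57 against 0.470), STRA6, the cell surface receptor for vitamin A (1.21 against 0.390), HOXC5 (0.509 against 0.115) and PDYN, the prodynorphin gene (0.245 against 0.0240). PDYN and LINC01206 were detected in 28.3% and 30.7% of cluster 9 cells and in 1.3% and 1.7% of other cells.

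**Figure D3:**
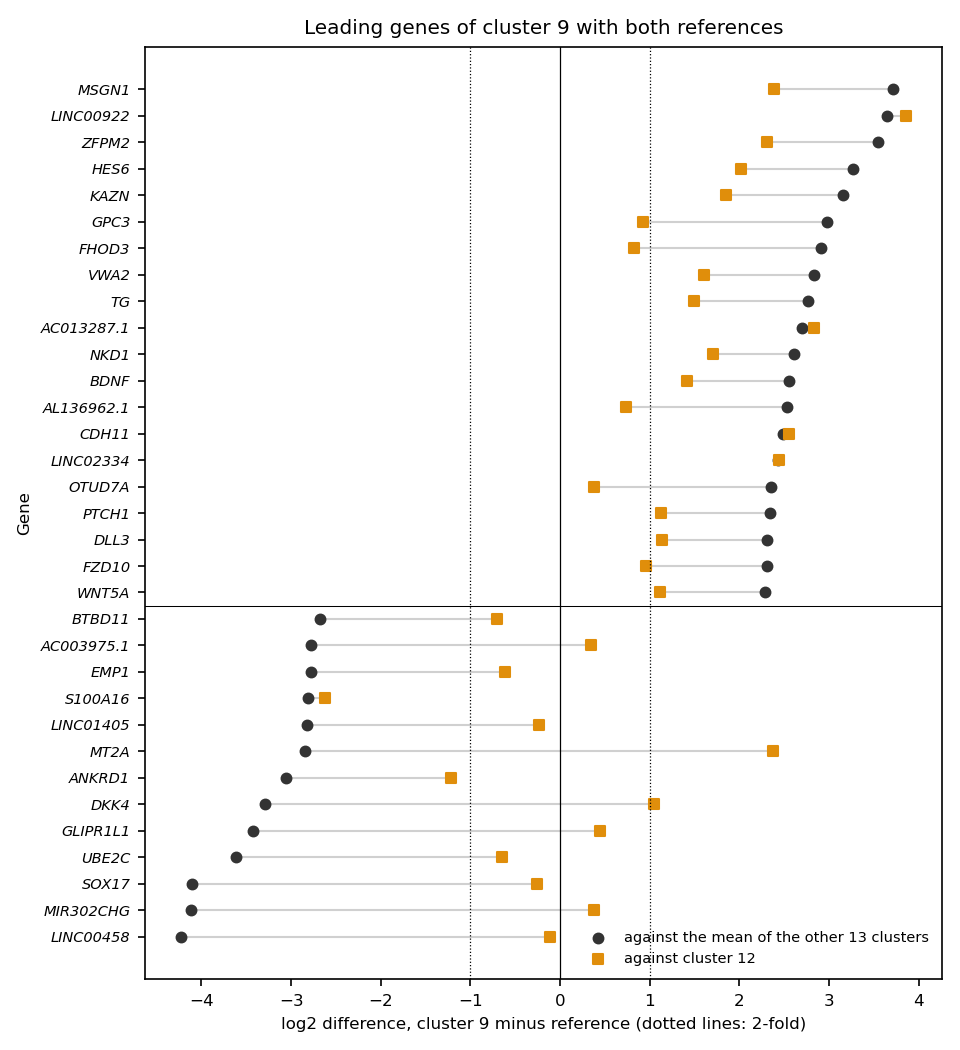
Log2 difference of cluster 9 from the mean of the 13 other clusters (black circles) and from cluster 12 alone (orange squares) for the 20 leading higher and 13 of the 15 leading lower genes, each level plus 0.1, with dotted lines at 2-fold. All higher genes lie right of 0 for both references and 15 stay past 2-fold against cluster 12, whereas 2 of the 13 lower genes, S100A16 and ANKRD1, stay 2-fold below it.

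The lower end was led by pluripotency-linked transcripts and by the induced gene itself. LINC00458, a long non-coding RNA of pluripotent cells, averaged 0.184 in cluster 9, 2.43 as the median and 15.9 in cluster 10 as the highest of the others, and MIR302CHG, host of the miR-302 cluster, 0.0302 against a highest of 7.62 in cluster 6. SOX17, the gene that every culture had been driven to activate, averaged 0.137 in cluster 9, against 0.0772 as the lowest, 0.614 as the median and 21.0 in cluster 0 as the highest of the others. Its log2 difference was -4.11 from the mean of the others and -0.26 from cluster 12, where it averaged 0.184.

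UBE2C, a ubiquitin-conjugating enzyme of mitosis, averaged 0.0933 against 0.204 to 7.78. MT2A, a metallothionein, averaged 1.75 in cluster 9, 13.7 as the median of the others and 0.257 in cluster 12, so it was 2-fold lower than the mean (-2.84) and 2-fold higher than cluster 12 (2.37). Of the 15 lowest genes, 6 had their lowest average in cluster 9. GLIPR1L1 was above cluster 12, by 0.44, and DKK4, MIR302CHG and AC003975.1 were listed at 0 there. Only S100A16 and ANKRD1 of the 15 were 2-fold below cluster 12. Metallothionein genes are near-identical, so the split of reads between MT2A and its relatives is uncertain.

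Of 9 NOTCH ligands and receptors, 3 were at least 2-fold higher and none was lower, namely DLL3, DLL1 and the receptor NOTCH1 (0.536 against 0.0754 to 0.245). Among 16 modifiers and HES/HEY genes, cluster 9 held the highest average of 8, against 18.5% of all measured genes. Of the 16, 6 were at least 2-fold higher and none was lower. Besides HES6, HES7 and LFNG these were the targets HEYL (0.812 against a median of 0.0619), HES1 (3.96 against 1.72) and HEY2 (0.759 against 0.220). HES6, HES7, LFNG, DLL1 and DLL3 were already counted with the presomitic mesoderm genes and are no separate support here.

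HEY2 was higher still in cluster 12, at 0.983, and HEYL and HES1 came within 2-fold of that cluster. NOTCH1, DLL1 and DLL3 were 2-fold above it (1.03, 1.21 and 1.14), and JAG1, a ligand of the other NOTCH ligand family, was 2-fold below it (-1.29, 0.251 against 0.758) and below cluster 7 (-1.07). Rescaled by the median of ratios, the log2 difference of HES1 was 0.96, under 2-fold.

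WNT pathway genes were divided. Of 23 feedback inhibitors and targets, 5 were at least 2-fold higher and 4 were 2-fold lower, and the median over the 23 was 0.38. Cluster 9 held the highest average of 6 of the 23, near the 18.5% of all measured genes. Higher were NKD1, the secreted LRP6 inhibitor DKK1 (4.63 against 0.115 to 3.68), the secreted WNT deacylase NOTUM (3.38 against a median of 0.703), the transcription factor SP5 (0.854 against 0.173) and the inhibitor APCDD1 (1.29 against 0.288, with a log2 difference of 1.11 that became 0.98 by median of ratios). AXIN2, the scaffold protein commonly read as a WNT target, averaged 1.58 against a median of 0.633 and a highest of 1.94 in cluster 7, and its log2 difference of 0.99 was just under 2-fold.

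Lower in cluster 9 were the antagonists DKK4 (0.106 against a highest of 8.17 in cluster 8), SFRP2 (0.0907 against a median of 0.593) and DKK3 (0.134 against 1.02 in cluster 8), and MYC (0.0481 against 0.425 in cluster 1). Against cluster 12, DKK1, NOTUM and SP5 differed by 0.32, -0.37 and -0.06 and APCDD1 by -1.33, while NKD1 was 1.71 higher. Of the lower members, SFRP2 (0.89) and MYC (0.20) were above cluster 12, DKK3 (-0.65) was below it and DKK4 was listed at 0 there, so the direction of SFRP2, MYC and DKK4 turned with the reference.

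Of 23 WNT ligands and R-spondins, 2 were higher and none lower, WNT5A and its paralog WNT5B (1.70 against 0.304 to 1.04). In this list 14 members stayed under 0.05 in every cluster. Of 22 receptors and effectors, FZD10 was higher and TCF7L1, a repressive TCF, was lower (0.257 against a median of 0.540). Only WNT5A of these ligands stayed 2-fold above cluster 12 (1.11).

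Of 18 FGF ligands, 4 were higher and 1 was lower. FGF17, of the FGF8 subfamily that acts in the streak and tail bud, averaged 1.54 in cluster 9 and ran from 0.0417 to 0.772 in the others. FGF1 averaged 1.57 against 0.0813 to 0.470, FGF18 0.686 against a median of 0.135 and FGF2 0.472 against 0.115. FGF13, an intracellular family member that is not secreted, averaged 0.649 against 0.405 to 5.65 and was the lower one.

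None of 7 FGF receptors passed 2-fold in either direction, and 3 of them stayed under 0.05 in every cluster. The 16 FGF and MAPK feedback genes included 3 higher and 4 lower members and had a median of -0.07. SPRY1 (0.634 against a median of 0.198, under 2-fold at 0.94 by median of ratios), EGR1 (2.40 against 0.673) and FOS (3.70 against 1.04) were higher, and SPRY2 (0.153 against 0.446), DUSP4 (0.0310 against 0.180), FOSL1 (0.0260 against 0.421) and PHLDA1 (0.378 against 1.47) were lower. DUSP6, the ERK phosphatase, averaged 1.53 and was 3rd highest in cluster 9, with cluster 12 highest at 1.63. FGF1 (1.93), SPRY1 (1.39) and FGF17 (1.09) were also 2-fold above cluster 12, and PHLDA1 (-2.60), FOSL1 (-2.06) and DUSP4 (-1.09) 2-fold below it. FGF13 (0.45) and SPRY2 (0.13) were above cluster 12, so their direction turned with the reference.

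The NODAL and Activin list had no higher member and 3 lower of 20, the antagonist CER1, the co-receptor TDGF1 and the ligand GDF3. GDF3 averaged 0.00158. CER1 averaged 0.303, 0.514 as the median of the others and 2.55 in cluster 8, while it was listed at 0 in cluster 12. In the BMP list of 22, the ligand BMP6 (0.290 against 0.0426), the inhibitory SMAD6 (0.513 against 0.142) and the target ID1 (8.06 against 3.07, under 2-fold at 0.88 by median of ratios) were higher, and BMP2 (0.0870 against 0.171), the antagonist GREM1 (0.0637 against 0.375) and ID3 (3.08 against 7.39) were lower, the second value being the median of the others in each case. ID1 and ID3, targets of the same pathway, thus lay on opposite sides of the mean of the others. Against cluster 12 both were higher (1.63 and 0.30), so the direction of ID3 turned with the reference. ID1 was higher still in cluster 13, at 8.70.

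Retinoic acid genes included 3 higher members and no lower one among 16. STRA6 averaged 1.21 (log2 difference 2.21, detected in 81.0% of the cells against 31.1%) and ALDH1A2, the enzyme that makes retinoic acid in somites, 1.25 against 0.261 as the median. ALDH1A2 was higher in cluster 12, at 3.05. CYP26A1, the enzyme that degrades retinoic acid in the tail bud, averaged 1.36 in cluster 9, within 0.0447 to 4.45 of the others. The log2 difference of CYP26A1 was -0.19 from the mean of the others but 1.70 from cluster 12, 3.11 from cluster 7 and 3.34 from cluster 4.

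HOX genes encode position along the body axis and lie in 4 chromosomal clusters. Of 39 measured genes, 11 were at least 2-fold higher and 1 was 2-fold lower, and the median over the 39 was 0.49. Cluster 9 held the highest average of 17 of the 39, against 18.5% of all measured genes. Against cluster 7, 4 were 2-fold higher and 6 lower. With a minimum mean of 0.5 only HOXB7 (-0.51) and HOXB9 (-1.12) were left, so their median of -0.81 describes no other HOX gene. By chromosomal cluster the 11 higher genes were 4 of 11 HOXA, 0 of 10 HOXB, 2 of 9 HOXC and 5 of 9 HOXD genes. The medians over all measured members were 0.72, -0.08, 0.33 and 1.08. HOXC5 had the largest difference (2.11), averaging 0.509 against 0.00399 to 0.115, and HOXD3 averaged 1.27 against 0.0326 to 0.790.

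Other HOX genes of high average in cluster 9 were HOXD11 (1.21 against at most 0.681), HOXD10 (1.01 against at most 0.547) and HOXA10 (0.888 against 0.971 in cluster 7). HOXC4, next to HOXC5 in the genome, averaged 0.337 against a median of 0.0310. HOXB9 was the 1 lower member, at 0.337 against 3.40 in cluster 7. Summed over their members, HOXB averaged 1.84 in cluster 9 and 8.14 in cluster 7, and HOXD 4.77 in cluster 9 and 2.77 in cluster 7.

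Cluster 9 thus held the highest average of 7 HOXD genes, of 7 HOXA, of 3 HOXC and of 0 HOXB genes, and its summed HOXB average was close to the median of the others (1.97). Reads of HOX genes that overlap one another or their antisense transcripts could not be told apart here, since strand use in counting was not given. HOXA3, HOXA10, HOXD1 and HOXD9 were under 2-fold when rescaled by median of ratios, to 0.90, 0.95, 0.91 and 0.92. Against cluster 12, 4 of the 39 were 2-fold higher, HOXD3 (1.87), HOXC5 (1.79) and HOXC4 (1.13) among them, and 2 were 2-fold lower, HOXB7 (-1.49) and HOXB9 (-1.19).

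Of 19 primitive streak and caudal progenitor genes, 3 were at least 2-fold higher (TBXT, SP5 and FGF17) and 2 were 2-fold lower. Cluster 9 was highest for 5 of the 19, near the 18.5% of all measured genes. The lower ones were EOMES (0.110 against 1.54 in cluster 8) and LHX1 (0.462 against 3.91 in cluster 8), T-box and LIM factors of mesendoderm. MIXL1, a homeobox factor of the streak, averaged 1.22 against 0.0720 to 1.87. Measured from cluster 12, MIXL1 (2.17), LHX1 (1.92) and EOMES (1.00) were higher, so the direction of LHX1 and EOMES depended on the reference.

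Of 16 somite and dermomyotome genes, FOXC1 (0.301 against at most 0.118) and ALDH1A2 were higher, PAX3 was lower, and 6 stayed under 0.05 in every cluster. PAX3 averaged 0.154, against a median of 0.201 and a highest of 1.56 in cluster 0, and differed from cluster 12 by -0.40. In the lateral plate, intermediate and cardiac list, PAX2 was higher (0.267 against at most 0.114, detected in 28.1% of cells against 3.6%) and NKX2-5 lower (0.0404 against 0.0795 to 0.318), of 16. There, too, 6 members stayed under 0.05 in every cluster. FOXC1 and PAX2 were also 2-fold above cluster 12 (1.67 and 1.29).

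Few markers of other fates were higher, but many could not be. A gene under 0.05 in every cluster cannot reach 2-fold once 0.1 is added. This held for 7 of 14 neural, 5 of 12 trophoblast, 5 of 12 endothelial and blood and 4 of 10 definitive endoderm genes. None of 14 neural genes was higher and 2 were lower, ZIC2 and SOX2, the latter averaging 0.0408 against 0.0510 to 1.60. ZIC2 was above clusters 12 (0.96) and 4 (0.70), so its direction turned with the reference. None of 12 trophoblast genes passed 2-fold either way, and of 12 endothelial and blood genes 1 was higher, LMO2 (1.54 against at most 1.18), whose log2 difference of 1.17 became 0.94 by median of ratios. Of 10 definitive endoderm genes 3 were lower (SOX17, EOMES and CER1) and CXCR4, a chemokine receptor, was higher (0.387 against at most 0.174). Against cluster 12 none of the 10 was 2-fold lower, EOMES was 1.00 higher, and CER1 was listed at 0 there.

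All 10 embryonal carcinoma and pluripotency genes lay below the mean of the others and 6 were at least 2-fold lower, with a median of -1.04. POU5F1 averaged 0.114 in cluster 9, 0.542 as the median and 3.96 in cluster 6, and NANOG 0.00721 against 1.06 in cluster 6. SOX2, NANOG and LIN28A were lowest in cluster 9 of all clusters. L1TD1 averaged 1.29 in cluster 9, close to the median of the others (1.52). The direction of the list did not hold against cluster 12, where POU5F1 averaged 0.0265 and NANOG 0.00823. Measured from there, POU5F1 (0.76), TDGF1 (0.99) and L1TD1 (1.14) were above and none of the 10 was 2-fold lower.

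Of 15 yolk-sac tumor genes, 6 were at least 2-fold lower, 2 were higher and 13 lay below the mean of the others. SOX17, ANKRD1, a YAP target (0.156 against 0.330 to 6.84), CST1 (0.0898 against 2.81 in cluster 10), APOA1 (0.0199 against 0.961 in cluster 0), BMP2 and DUSP4 were lower. GPC3 and CXCR4 were the higher ones. Against cluster 12, 3 of the 15 were 2-fold lower (ANKRD1, CST1 and DUSP4) and none was higher.

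All 15 G2/M genes lay below the mean of the others, 13 of them at least 2-fold, with a median of -1.35. CDK1, the mitotic kinase, averaged 0.0523 against 0.0580 to 2.03, UBE2C was given above, TOP2A, topoisomerase of dividing cells, had a log2 difference of -1.97, and MKI67 averaged 0.175 against 0.0960 to 2.32. Cluster 3 was the highest for every G2/M gene named here. All 16 S phase genes lay below the mean as well, 5 of them at least 2-fold, with a median of -0.73, and no S phase or G2/M gene differed 2-fold from cluster 12.

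Of 16 p53 targets, 3 were at least 2-fold higher and 1 was 2-fold lower, with a median of 0.63. Cluster 9 was highest for 8 of the 16, against 18.5% of all measured genes. GDF15, a stress-induced cytokine, averaged 3.66 against at most 2.88, BTG2, an antiproliferative factor, 1.37 against at most 1.05 and TP53INP1 0.488 against at most 0.297, while the death receptor gene TNFRSF10B averaged 0.0678 against a median of 0.478. Cluster 12 was next highest for the first 3, and none of the 16 was 2-fold above it. Of 16 G1 cyclins and inhibitors, CDK6 was higher (1.11 against at most 0.949) and CDKN2A, encoding p16, lower (0.0978 against 0.208 to 0.775). CCND2 averaged 7.67 in cluster 9 and 20.4 in cluster 12.

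Adhesion and matrix genes lay on both sides. Of 19 adhesion and epithelial-mesenchymal genes, CDH11 was at least 2-fold higher and KRT19 (0.275 against 0.656 to 4.47), CLDN6 and EPCAM were 2-fold lower. EPCAM averaged 0.0836, with 1.37 in cluster 6 as the highest of the others and 0.122 in cluster 12, within 2-fold. Of 12 mesenchyme genes, COL1A1 (log2 difference 1.45), COL3A1 (1.04) and PDGFRB (1.01) were higher, the last 2 under 2-fold by median of ratios (0.91 and 0.85), and TAGLN (0.189 against 0.345 to 3.54) and COL1A2 (0.0689 against 2.21 in cluster 12) lower. From cluster 12, COL1A1, COL3A1 and PDGFRB differed by -0.10, 0.73 and 0.59. None of the 12 was 2-fold above that cluster and 3 were 2-fold below it. VIM, the vimentin gene, averaged 10.5, below the 11.6 to 40.9 of all other clusters, and its log2 difference of -0.96 became -1.21 by median of ratios.

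The COL1A2 difference was -1.08 from the mean of the others, in which cluster 12 was highest, and 0.10 from their median. Of 10 glypicans and syndecans, GPC3 and GPC4 (2.40 against 0.229 to 1.91) were higher and SDC4 (0.0814 against 0.447 in cluster 10) lower. Of 12 basement membrane genes, NID2 was higher (0.169 against at most 0.0756, 0.97 by median of ratios), and of 19 ephrins and Eph receptors, EPHA4, which acts at somite borders, was higher (0.850 against at most 0.572).

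Of 6 long non-coding RNAs retained in the nucleus, listed as a sign of RNA quality, 3 were at least 2-fold higher and 1 was 2-fold lower, with a median of 0.98. SNHG14 averaged 6.85 against 1.08 to 4.87 and KCNQ1OT1 2.22 against a median of 0.786, while MEG3 had a log2 difference of 1.14 that was under 2-fold by median of ratios. NEAT1 averaged 26.9 in cluster 9 and differed from cluster 12 by -0.98 (log2), and MALAT1 averaged 74.1 and differed by -0.70, so cluster 12 was above cluster 9 for both. The part of these transcripts in the other differences was not tested. None of 12 housekeeping genes passed 2-fold, and their median was -0.16.

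By rank correlation across the 12139 genes, the profile of cluster 9 was most like those of clusters 12 (Spearman 0.924), 7 (0.912) and 4 (0.908), and least like clusters 11 and 13 (both 0.748). Genes are not replicates, and the clusters hold cells of the same libraries in different shares, so these are descriptions. The 3 clusters are set against cluster 9 gene by gene below, naming genes with an average of at least 0.5 in either cluster after their values were seen.

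Against cluster 12, 221 genes were higher and 327 lower at 2-fold among all measured genes. The largest differences upwards, after LINC00922, were those of AC009055.2 (2.13 against 0.127), AC009055.1 (1.15 against 0.0468) and STC1, the stanniocalcin gene (0.795 against 0.0143), and downwards those of CXCL14, a chemokine (0.0195 against 2.68), LINC02476 (0.176 against 4.15), PITX1, a homeobox factor (0.282 against 5.36), and COL1A2. VGF, S100A6, IGFBP7, TIMP3 and KRT19 were lower too. MSGN1 (2.38) was among the 15 largest differences upwards.

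Against cluster 7, which had a high SOX17 average (12.4), 1.12% of all genes were 2-fold higher and 0.761% lower, and 8 presomitic mesoderm genes were higher and 1, CDX2 (-1.40), lower. MSGN1 (5.05), HES6 (4.64), KAZN (3.84) and DKK1 (3.76) led, and SOX17 (-5.72), BTBD11 (-4.13) and TMSB4X (-3.91) were lowest, with HOXB9 at -3.00. Against cluster 4, in which VIM was highest, 1.01% were higher and 1.11% lower, and 8 presomitic mesoderm genes were higher and none lower. There MSGN1 (4.87), LINC00922 (3.84), HES6 (3.71) and KAZN (3.61) led, FGF17 was 3.53 higher, and EMP1 (-5.11), S100A16 (-3.91), KRT19 (-3.61) and HMGA2 (-3.45) were lowest. MSGN1 and HES6 were among the 15 largest differences from each of clusters 7 and 4, and MSGN1 also from cluster 12.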

How the data were processed

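Single cell libraries of the 3 lines (1 each) were made with the 10x Chromium 3' v3.1 chemistry. According to the submitters' processing notes, the authors used Cell Ranger 7.0 on GRCh38 and Seurat 4.1.1. Per the methods, the authors aggregated the libraries with a normalization for sequencing depth, removed cells with under 200 genes or over 10% mitochondrial reads, genes in under 3 cells and doublets (DoubletFinder), transformed with SCTransform and clustered on a graph. Annotation release, strand and intron settings were not given in the sources used here. The deposited expression values are cluster averages, in UMIs per 10000, of all libraries pooled, so they carry no replicate error. The deposited counts are numbers of cells per cluster and library code. The deposited detection fraction is the share of cells with a UMI of a gene, listed by the authors for 952 genes at least 0.25 higher on the log2 scale in cluster 9, and the authors' fold changes and p-values beside it were not used.

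From these, log2 differences with 0.1 added were computed for all 32727 genes in Python 3.11.15 (pandas 2.3.3, numpy 2.4.6, scipy 1.17.1, matplotlib 3.10.9), with a minimum mean of 0.05 over the 14 clusters for counts over all genes, after the procedure was tested on simulated data. List counts cover all measured members, because a member may pass the minimum only through cluster 9. Genes named were the 6 markers, list members at least 2-fold different or among the 4 highest of a list, the 20 most and 15 least, the 20 with the highest ratio to the next cluster and SOX17. Genes given only in the comparisons with clusters 12, 7 and 4 were picked with their values in view. The members and all 33 lists were chosen with earlier results of these data known. Gene positions are from GENCODE 44. Alternatives changed the added value, minimum, scaling and reference clusters. Values of a few genes are not reported here.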

Additional observations from a re-analysis of the deposited data

How the results depend on the processing

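The averages pool the libraries and have no depth or replicate error attached, so no library could be left out. No paired analysis was possible because each line gave 1 library, all with replicate number 1, and no result comes from a test. List medians here are over members past the minimum mean of 0.05: presomitic mesoderm 1.58, primitive streak 0.29, somite 0.39, pluripotency -1.06, yolk-sac tumor -1.04, NOTCH modifiers 0.53, WNT feedback 0.70, FGF feedback -0.07 and HOX 0.74, with 373 genes higher and 379 lower. Members included only because cluster 9 is high were 1 presomitic mesoderm, 1 primitive streak, 1 WNT feedback and 2 HOX genes. Over all measured members the medians of these 4 lists were 1.36, -0.0037, 0.38 and 0.49. Weighting the others by cells, leaving out ribosomal and mitochondrial genes and leaving out clusters drawn mainly from 1 library moved the medians by no more than 0.25 and the counts by less than 1.5 times (365 higher and 418 lower, 404 and 477, and 339 and 435, in that order). The causes of the changes below were not tested.

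With 0.01 added, 792 genes were higher and 891 lower, and the medians were 2.27 for presomitic mesoderm, 0.64 for primitive streak, -1.38 for pluripotency, -1.71 for yolk-sac tumor, 1.08 for NOTCH modifiers and 1.31 for HOX. With 1 added, 41 were higher and 30 lower, and the medians were 0.40 for presomitic mesoderm, 0.10 for somite, -0.30 for pluripotency, -0.18 for yolk-sac tumor, 0.0888 for NOTCH modifiers, 0.21 for WNT feedback and 0.21 for HOX. With no minimum, the medians were -0.0037 for primitive streak, 0.0623 for somite, 0.0162 for lateral plate, -0.56 for yolk-sac tumor, 0.38 for WNT feedback and 0.49 for HOX. With a minimum of 0.5, 108 genes were higher and 184 lower, and the medians were 3.49 for presomitic mesoderm, -1.30 for primitive streak, 1.17 for somite, 0.56 for lateral plate, -2.55 for yolk-sac tumor, 2.24 for NOTCH modifiers, 0.99 for WNT feedback, -0.64 for FGF ligands and -0.81 for HOX. Most of these medians rested on few members. They were MSGN1 and HES6 for presomitic mesoderm, MIXL1, EOMES and LHX1 for primitive streak, ALDH1A2 alone for somite and TBX3 alone for lateral plate. For NOTCH modifiers they were HES6 and HES1, for FGF ligands FGF12 and FGF13, and for HOX HOXB7 and HOXB9. MSGN1 and ALDH1A2 passed this minimum only through cluster 9. Median of ratios scaling gave 244 higher and 579 lower, and 14 of 255 named genes were no longer past 2-fold, against 114 with 1 added, 64 against the 3 most alike clusters and 20 against the median of the others.

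Against the median of the others, yolk-sac tumor was -0.52, mesenchyme 0.10, HOX 1.18 and COL1A2 0.10. Against only the 3 most alike clusters, 180 genes were higher and 241 lower, and the medians were 1.20 for presomitic mesoderm, 0.86 for primitive streak, -0.32 for pluripotency, 0.62 for endoderm, -0.47 for yolk-sac tumor, 0.20 for WNT feedback, 0.44 for HOX and -0.0004 for nuclear retained transcripts. Sign changes were listed only for named genes past 2-fold against this reference or the mean of the others. Among these the sign changed for EOMES (0.78), LHX1 (1.46), ZIC2 (0.18), TDGF1 (1.09), CER1 (1.68), FN1 (-1.10), DKK4 (0.68), APCDD1 (-0.14) and CYP26A1 (2.52). Genes under 2-fold against both could change sign as well and are not listed. Without the 3 SOX17-high clusters HOX was 1.11. Both following references were chosen after seeing the data. Against clusters 12 and 13, 521 genes were higher and 193 lower, and the medians were 1.05 for presomitic mesoderm, 0.25 for neural, 0.0226 for pluripotency, 0.76 for endoderm, -0.29 for yolk-sac tumor, 0.27 for NOTCH modifiers, 0.25 for WNT feedback and 0.44 for FGF feedback. Against cluster 12 alone, 197 were higher and 277 lower, and the medians were 0.69 for presomitic mesoderm, 0.0686 for neural, 0.12 for pluripotency, 0.64 for endoderm, -0.26 for yolk-sac tumor, 0.0709 for WNT feedback, -0.0055 for FGF receptors, 0.42 for HOX, -0.31 for basement membrane, 0.20 for S phase and -0.25 for nuclear retained transcripts.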
